A study of Mus musculus with 7 samples.

Results

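The genes described here are 8 genes of the vesicle release machinery, measured in nuclei of cultured BB-p53n OPCs. They are the synaptotagmins *Syt1*, *Syt4* and *Syt11*, the plasma membrane SNARE genes *Snap25*, *Snap23* and *Stx1a*, and the vesicle SNARE genes *Vamp2* and *Vamp3*. They were chosen by symbol for their function, as 8 of the 33696 genes in the count table, and were read in the 8917 of 10047 deposited barcodes with 2000 to 8000 detected genes. BB-p53n OPCs are primary oligodendrocyte progenitor cells, purified from early postnatal *Trp53* fl/fl C57BL/6 pups of either sex with an antibody to CD140a (PDGFRα) and transduced with a PDGFB-IRES-CRE retrovirus, which deletes *Trp53* through Cre and drives PDGFB. The study injected BB-p53n OPCs into mouse brains and profiled early and late tumors, and those 6 libraries were not analysed here. The 1 OPC library was made from the nuclei of a culture, with no replicate culture and no OPCs without the virus, so no difference from normal OPCs can be drawn.

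Regulated secretion depends on SNARE proteins, which zip together between a vesicle and the plasma membrane. On the plasma membrane sit a syntaxin and a SNAP-25 type protein, and on the vesicle sits a VAMP, also called synaptobrevin. Neurons use *Stx1a*, *Snap25* and *Vamp2* at the synapse, while *Snap23*, *Vamp3* and *Stx4a* encode close relatives that serve secretion and membrane traffic in many cell types. Synaptotagmin 1, the product of *Syt1*, is the calcium sensor of fast synaptic release. Synaptotagmins 4 and 11 belong to the same family but are not known as calcium sensors of fast release, and they are found on other compartments such as dense core vesicles, the Golgi apparatus and endosomes. OPCs receive synapses from neurons and also release factors of their own.

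The RefSeq promoter table (build GRCm38.p6) matched 4 of the 8 members, *Syt1*, *Syt11*, *Snap23* and *Stx1a*. The stretch before *Syt1* is shown because *Syt1*, the calcium sensor gene, was far lower in one large cluster of nuclei. It was also the only one of the 4 with a window mostly before annotated exons. Of the 250 bases of that window, the 20 nearest the start lay in an exon and were cut off. Another *Syt1* window of the table lay wholly in exons and was left out. The sequence was found once in GRCm39, on the minus strand at chr10:108846857-108847086, and these 230 bases lie before the first annotated exon of *Syt1*. Capitals mark the 2 CCAAT boxes, searched as CCAAT on either strand, so that one reads ATTGG.
Syt1: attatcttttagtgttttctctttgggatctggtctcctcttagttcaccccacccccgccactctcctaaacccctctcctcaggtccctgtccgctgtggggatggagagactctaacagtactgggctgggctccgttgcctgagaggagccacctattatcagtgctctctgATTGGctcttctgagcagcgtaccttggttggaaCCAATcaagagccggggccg
Among the 32851 promoters of the table, 32.2% held a CCAAT box in a stretch of the same length. The window held no GC box (GGGCGG on either strand, present in 29.8% of all promoters) and no E-box of the letters CAGCTG (present in 11.8%), and its GC content was 54.8% beside a median of 51.7%.

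The kept nuclei held 141138093 UMIs (medians of 13771 UMIs and 4718 genes a nucleus), of which 6.34% came from mitochondrial genes. Barcodes under the cutoff carried 19.5% mitochondrial UMIs. The nuclei carried the markers of the labelled cell type, and all 8 OPC markers stood at 10 CPM or more (CPM is the UMI count of a gene divided by all UMIs and scaled in the usual way), among them *Olig1* at 618 CPM, *Olig2* at 293 CPM and *Pdgfra* at 256 CPM. Defining genes of mature oligodendrocytes (*Mog*, 0.0709 CPM), astrocytes (*Aqp4*, 0.0283 CPM), microglia (*C1qa*, no UMI) and endothelial cells (*Cldn5*, no UMI) were at or near 0. Over all nuclei, the neuronal transmitter genes *Slc17a6*, *Slc17a7*, *Slc32a1* and *Gad2* lay between 0.00709 and 0.0992 CPM, while *Gad1* reached 2.32 CPM. A single library gives no replicate and allows no test, and every interval below is a 95% interval (Poisson for levels, binomial for shares) that covers counting error only.

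All 8 members were detected, and per kilobase of annotated gene span the vesicle SNAREs and *Syt11* were highest and *Snap25* lowest. Levels are given first in CPM for each gene and compared between genes per kb, because counting in nuclei takes in unspliced transcripts by default and long genes can gather more UMIs. The synaptotagmin gene *Syt11* had 210.1 CPM (207.7 to 212.5), and only 835 genes had more UMIs. *Syt1* had 109 CPM (107 to 111), and *Syt4* had 18.9 CPM (18.2 to 19.7). *Snap23*, the broadly used SNAP-25 relative, had 26.7 CPM (25.8 to 27.5), and the neuronal *Snap25* had 8.24 CPM (7.77 to 8.73). The neuronal syntaxin gene *Stx1a* had 6.17 CPM (5.77 to 6.60), from 871 UMIs. Of the vesicle SNAREs, *Vamp3* had 77.7 CPM (76.3 to 79.2) and *Vamp2* 23.6 CPM (22.8 to 24.5).

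Scaled to gene span, the short vesicle SNARE genes came first. *Vamp3* had 7.28 CPM per kb and *Vamp2* 6.07 CPM per kb, ahead of *Syt11* with 4.17, *Syt4* with 1.91 and *Snap23* with 0.746 CPM per kb. *Stx1a* (0.222 CPM per kb), *Syt1* (0.212) and *Snap25* (0.0908) were last. *Syt1* was second in CPM but seventh per kb, and it spans 513 kb on chromosome 10, while *Vamp2* spans 3.90 kb on chromosome 11. *Snap25* lay below *Snap23* on both scales. On GRCm39, *Syt1* (ENSMUSG00000035864) lies at chr10:108333505-108846856, *Syt11* at chr3:88632134-88682471, *Snap25* at chr2:136533580-136624362 and *Snap23* at chr2:120397782-120433531. *Vamp2* lies at chr11:68979316-68983210, *Vamp3* at chr4:151131757-151142433, *Stx1a* at chr5:135052139-135079963 and *Syt4* on chromosome 18. *Syt11* overlaps *Rit1* (2593 UMIs) and *Snap23* overlaps *Lrrc57* (1942 UMIs), both on the opposite strand, and *Syt1* holds *Brcc3dc* (47 UMIs) on its own strand.

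**Figure D1:**
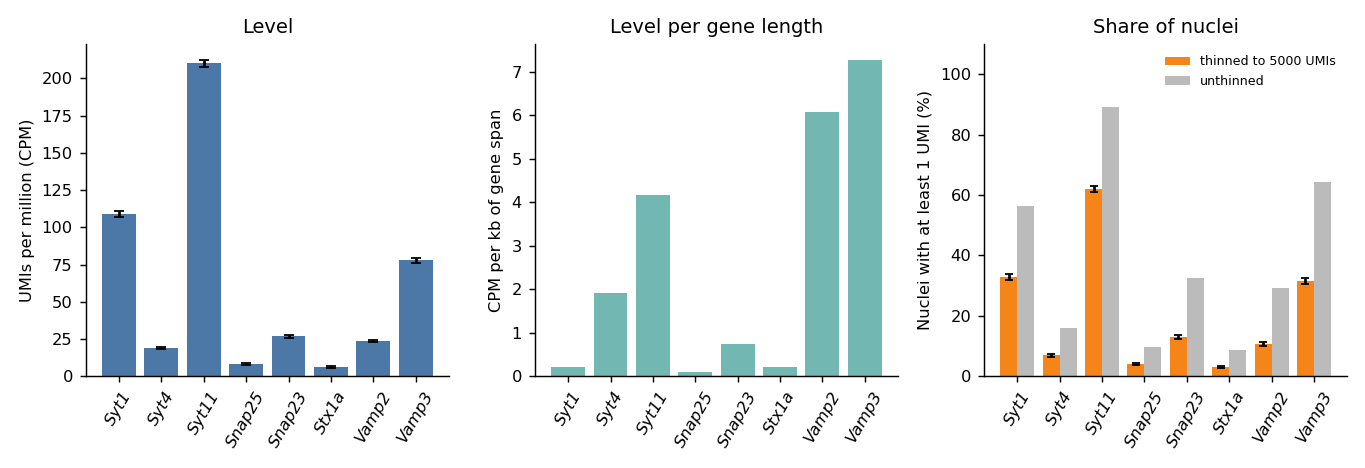
Levels of the 8 members in CPM (left), the same per kilobase of gene span (middle) and the percentage of nuclei with at least 1 UMI (right), thinned to 5000 UMIs (orange) and unthinned (grey), in 1 library, with 95% counting intervals on the CPM and thinned bars. *Syt11* is highest in CPM at 210.1 and *Vamp3* is highest per kb at 7.28, while *Snap25* and *Stx1a* have the fewest nuclei with a UMI.

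The share of nuclei with a UMI depends on depth, so UMIs were drawn down at random to 5000 in every nucleus that had as many (8760 nuclei, 157 being shallower). *Syt11* was then seen in 62.0% of nuclei (89.0% unthinned), *Syt1* in 32.8% (56.5%) and *Syt4* in 6.87% (15.8%). *Vamp3* was seen in 31.6% (64.2%) and *Vamp2* in 10.6% (29.3%). *Snap23* was seen in 13.0% (32.7%), *Snap25* in 4.09% (9.79%) and *Stx1a* in 2.95% (8.79%). After thinning, 9 genes that OPCs should lack were seen in 0% to 0.263% of nuclei, the highest being the heart myosin gene *Myh6*. Free RNA of a culture comes from the cultured cells themselves, so such genes give no background share for the members, and the part of free RNA in low shares of the members was not tested.

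The counts of *Syt1* and *Syt4* varied between nuclei beyond counting, while those of *Snap23* and the VAMP genes varied little beyond it. The variance of the thinned UMI counts over their mean, which is 1 for pure counting, was 2.04 for *Syt4*, 1.70 for *Syt1*, 1.27 for *Snap25* and 1.18 for *Syt11*. For *Snap23*, *Vamp2*, *Vamp3* and *Stx1a* it lay between 1.01 and 1.04. Their means were low, at 0.140 UMIs a thinned nucleus for *Snap23*, 0.113 for *Vamp2*, 0.385 for *Vamp3* and 0.0306 for *Stx1a*. At a low mean this measure lies near 1 even where nuclei differ, so it cannot show an even spread. *Snap23* ranged 2.26-fold between the clusters described below. Single nuclei reached 34 UMIs of *Syt4* and 27 of *Syt1* without thinning, against at most 6 of *Snap25*, *Snap23* or *Vamp2*.

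To see in which nuclei the members lay, the 8917 nuclei were clustered with the stated normalization, PCs, neighbors and resolution of the study, but with the members and the other vesicle genes left out of the variable genes. This gave 8 clusters, numbered 0 to 7, of 181 to 1809 nuclei. Cluster 0 was led by *Nrg3* and cluster 2 by *Fam135b*, with 67.1% of the nuclei of cluster 2 scored as G1. Cluster 1 was led by *Adm*, *Grin2a* and *Tsix*, and in it *Pdgfra* stood at 19.4 CPM and *Egfr* at 236 CPM, beside 144 to 395 CPM of *Pdgfra* and 2.64 to 111 CPM of *Egfr* in the others. Cluster 3 was led by *Ralyl*, *Tafa1* and *Tafa2*, cluster 4 by the mitotic gene *Cdc20*, cluster 6 by histone genes and cluster 7 by *Bnc2*. Cluster 5 had no gene 1.5-fold higher than the other nuclei, the most UMIs a nucleus (median 30307) and the highest median Scrublet score, a measure of likeness to artificial doublets (0.286 beside 0.0340 to 0.0633 elsewhere). *Olig1* (520.0 to 719 CPM) and *Olig2* (212 to 317 CPM) were abundant in all 8 clusters. The 8 OPC markers summed to 1808 CPM in cluster 1 and to 3815 to 7519 CPM in the others, and the 15 neuron markers, 4 of which reached 10 CPM over all nuclei, summed to 106 to 152 CPM. This sum hides single neuron markers that were uneven between clusters. In the cluster where each was highest, *Gad1* had 25.2 CPM, *Nefl* 19.6 and *Rbfox3* 15.8, beside 2.32, 4.17 and 4.04 CPM over all nuclei. *Slc17a6*, *Slc17a7*, *Slc32a1* and *Gad2* had at most 0.215 CPM in any cluster.

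Cluster membership followed sex-linked transcripts in part. Of the nuclei in cluster 1, 90.9% held *Xist* and no Y-linked UMI, whereas 78.6% of cluster 3 held a Y-linked UMI and no *Xist*. In the other clusters these shares were between 2.21% and 27.5% and between 5.98% and 41.7%, many nuclei having neither. The donor's sex and the other features of clusters 1 and 3 cannot be told apart.

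Of the 7 members with at least 1000 UMIs, 5 differed 2-fold or more between their highest and lowest cluster, and the same held for 40.9% of the 10079 genes with that many UMIs. *Stx1a*, with too few UMIs to be counted, ranged from 3.73 to 7.40 CPM. The median of this ratio was 2.83 over the 7 members and 1.82 over all 10079 genes. The widest ranges were those of *Syt4*, *Syt1* and *Snap25*. Without cluster 5 and the nuclei holding both *Xist* and Y-linked UMIs, and likewise without the nuclei in the top 8% of Scrublet scores, the count stayed at 5. It was 7 with 20 neighbors in place of 200, which gave 19 smaller clusters. The 40.9% of all genes belongs to the 8 clusters, and no such share is given for these other counts, so they cannot be weighed against it.

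The results differ in part in the smaller set of 1954 nuclei with at most 5% mitochondrial UMIs, which equals in number the set the study analysed. In it *Syt1* had 133 CPM (129 to 137) and *Snap25* 12.7 CPM, while *Syt11* had 219 CPM, *Snap23* 25.6, *Vamp2* 24.6, *Vamp3* 78, *Syt4* 18.1 and *Stx1a* 4.95 CPM. Clustered alone, these nuclei formed 5 clusters, and the adjusted Rand index with the 8 clusters, which is 1 for the same grouping, was 0.475. Between the 5 clusters 3 of the 7 members differed 2-fold or more, namely *Syt1* (10.2-fold), *Syt4* (9.48-fold) and *Snap25* (4.34-fold). No share of all genes is given for these 5 clusters. *Snap23* ranged 1.99-fold, *Vamp2* 1.84-fold, *Syt11* 1.52-fold and *Vamp3* 1.25-fold.

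From cluster 0 to cluster 7 in turn, *Syt1* had 118, 13.6, 104, 224, 102, 105, 141 and 73.2 CPM. The calcium sensor gene thus stood near the same level in clusters 0, 2, 4 and 5, was highest in cluster 3 and was far lower in cluster 1. The highest was 16.4 times the lowest (14.6 to 18.5), and this ratio was 10.2 to 45.5 under the other clusterings. After thinning, 5.28% of the nuclei of cluster 1 held a *Syt1* UMI, against 55.4% of those in cluster 3. Within cluster 1 the 88 nuclei that held both *Xist* and Y-linked UMIs had 30.8 CPM of *Syt1* (22.6 to 41.1), against 12.2 CPM (10.7 to 13.8) in its 1575 nuclei with *Xist* only, and without the top 8% of Scrublet scores the range of *Syt1* widened to 23.0-fold.

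In the same order, *Syt4* had 17.1, 1.67, 35.4, 15.6, 21.6, 24.6, 19.7 and 2.33 CPM. It was low in both clusters 1 and 7 and highest in cluster 2, a 21.2-fold range (15.2 to 30.4). In contrast to *Syt1* it was not raised in cluster 3. *Syt11* was present throughout, from 90.4 CPM in cluster 7 and 160.4 in cluster 1 to 256 in cluster 0, a 2.83-fold range (2.45 to 3.28). In cluster 1 *Syt11* was at 0.731 of its level in the other nuclei, while *Syt1* was at 0.108 and *Syt4* at 0.0754 of theirs.

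Of the plasma membrane SNAREs, *Snap25* had 15.2 CPM in cluster 0 and 21.0 in cluster 3, but 2.57 CPM in cluster 1 and 3.16 to 7.24 CPM in the others. Clusters 0 and 3 held most of it, and the range was 8.17-fold (6.16 to 11). *Snap23*, which ranged 2.26-fold (1.96 to 2.62, 1.93-fold at resolution 0.4 and 1.99-fold with at most 5% mitochondrial UMIs), went the other way, with 44.3 CPM (41.6 to 47.1) in cluster 1 and 35.9 CPM in cluster 7 against 19.6 to 24.7 CPM elsewhere. *Stx4a*, the syntaxin that pairs with *Snap23* in many cell types, was likewise highest in these clusters, with 41.3 CPM in cluster 1, 33.1 in cluster 7 and 17.4 to 24.6 in the others. The ratio of highest to lowest cluster was 1.99 (0.984 to 4.68) for *Stx1a*, an interval that includes 1, and 5.04 with 20 neighbors.

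The vesicle SNAREs had the narrowest ranges. *Vamp3*, which serves recycling and constitutive traffic, lay between 65.3 and 90.0 CPM, a 1.38-fold range (1.16 to 1.66). *Vamp2* lay between 23.1 and 27.2 CPM in clusters 0 and 2 to 6, and had 19.6 CPM in cluster 7 and 15.7 CPM (14.1 to 17.4) in cluster 1. Its range was 1.74-fold (1.51 to 2.00). With 20 neighbors the ranges were 2.21-fold for *Vamp2* and 2.60-fold for *Vamp3*.

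**Figure D2:**
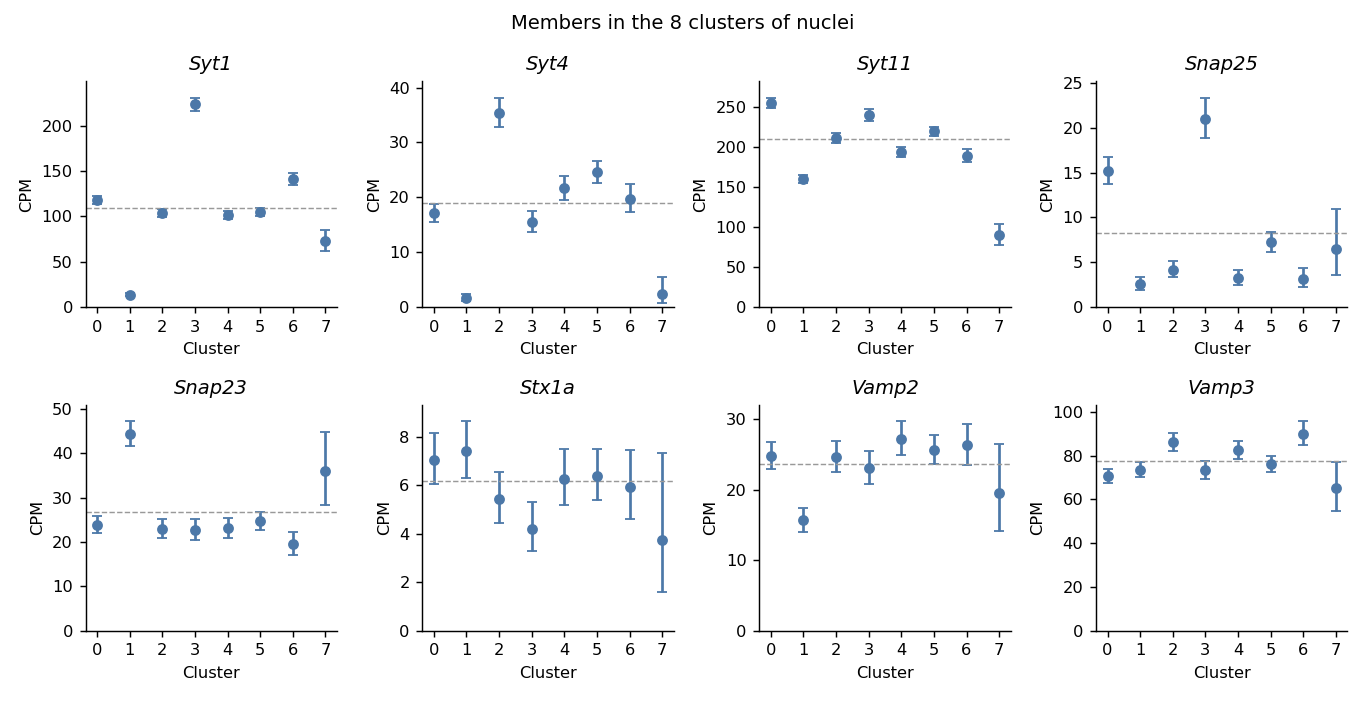
Level of each member in CPM in clusters 0 to 7 (points, with 95% Poisson intervals) and in all kept nuclei (dashed line). *Syt1*, *Syt4*, *Snap25* and *Vamp2* are lowest in cluster 1, where *Snap23* is highest at 44.3 CPM, and *Vamp3* stays between 65.3 and 90.0 CPM.

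Read against all the other nuclei, cluster 1 had 4 of the 7 members lower by 1.5-fold or more (*Syt1*, *Syt4*, *Snap25* and *Vamp2*) and 1 higher (*Snap23*). Of all 10079 genes, 15.1% were lower and 18% higher by that much in cluster 1. Of the other 54 vesicle genes with enough UMIs, 20 were lower and 6 higher. In cluster 3, 2 of the 7 members (*Syt1* and *Snap25*) and 14 of the 54 other vesicle genes were higher, where 5.43% of all genes were higher and 8.23% lower. None of the 7 members and 4 of the 54 other vesicle genes were lower there. *Stx1a*, under the UMI minimum and so not among the 7, was at 0.654 (0.505 to 0.835) of the other nuclei in cluster 3. In cluster 7 it was at 0.601 (0.258 to 1.19). In the remaining clusters few members passed 1.5-fold, and it was *Snap25* in 4 of them. *Snap25* was higher in cluster 0 at 2.27 times the other nuclei (2.00 to 2.57), where 3.05% of genes were higher and 6.67% lower. It was lower in cluster 2 at 0.470 (9.55% of genes lower), in cluster 4 at 0.361 (9.31%) and in cluster 6 at 0.363 (7.69%). *Syt4* was higher in cluster 2 at 2.19 times the other nuclei (2.85% of genes higher), while no member was higher in cluster 4 (2.38%) or cluster 6 (2.75%). In cluster 7 *Syt4* (0.121) and *Syt11* (0.427) were lower and none was higher, beside 11.6% and 9.87% of all genes. In cluster 5 no member passed in either direction, with 0.407% of genes lower and 0% higher. The 54 other vesicle genes are to be read beside the same shares of all genes. In cluster 0, 9 of them (16.7%) were higher and 1 (1.85%) lower. In cluster 4, 0 were higher and 12 (22.2%) lower, and in cluster 7, 12 (22.2%) were higher and 8 (14.8%) lower. The counts were 2 higher and 4 lower in cluster 2, 4 and 5 in cluster 6, and 0 and 0 in cluster 5. The median log2 ratio of all genes on the same chromosome in cluster 1 was 0.12 for chromosome 10 (*Syt1*), 0.12 for chromosome 18 (*Syt4*) and 0.33 for chromosome 2 (*Snap25* and *Snap23*). Without cluster 5 and the nuclei holding both marks, and without the nuclei of high Scrublet score, the counts in cluster 1 were again 4 lower and 1 higher.

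The balance between neuronal and broadly used relatives was then taken as the share of UMIs, in which gene length cancels when clusters are compared. *Snap25* made up 23.6% (22.4 to 24.8) of the UMIs of *Snap25* and *Snap23* together. That share was 5.49% (4.19 to 7.06) in cluster 1, 39.0% (35.9 to 42.1) in cluster 0 and 48.1% (44.4 to 51.8) in cluster 3, and 12.4% to 22.6% in the rest. The balance of this pair thus moved more than that of either other family. *Vamp2* made up 23.3% (22.6 to 24) of the UMIs of *Vamp2* and *Vamp3*, from 17.6% in cluster 1 to 26.0% in cluster 0. *Stx1a* gave 11.7% (11 to 12.5) of the UMIs of the 5 plasma membrane syntaxin genes on the syntaxin list, from 5.59% (2.45 to 10.7) in cluster 7 to 14.4% (12.5 to 16.5) in cluster 0. Cluster 1 had the lowest share of *Snap25* and of *Vamp2*, and its share of *Stx1a* was 9.90% (8.51 to 11.4).

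**Figure D3:**
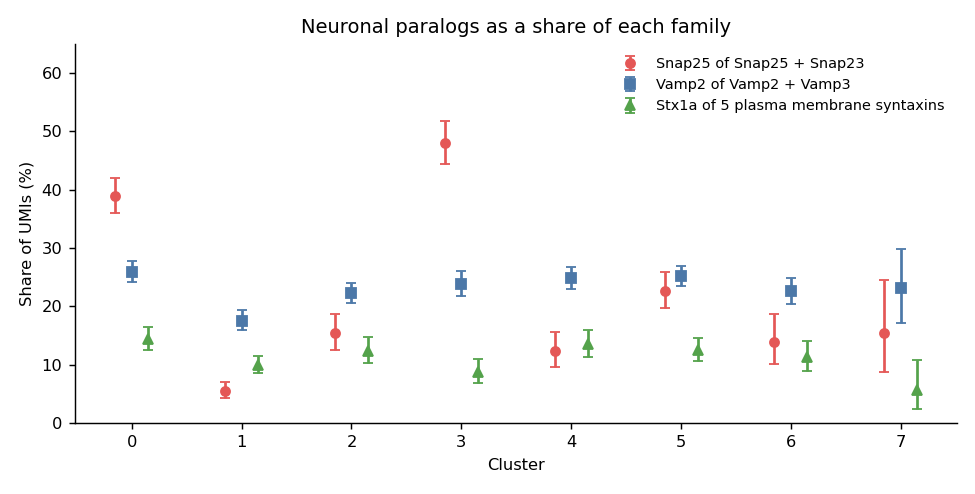
UMIs of the neuronal relatives as a percentage of their family in each cluster, with 95% binomial intervals. *Snap25* ranges from 5.49% of *Snap25* and *Snap23* in cluster 1 to 48.1% in cluster 3, while *Vamp2* stays between 17.6% and 26.0% of *Vamp2* and *Vamp3* and *Stx1a* between 5.59% and 14.4% of the plasma membrane syntaxins.

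Over the cell cycle, *Syt4* was the member that differed most. Nuclei were scored for phase from S and G2/M genes, and *Syt4* had 29.8 CPM (28.1 to 31.7) in the 2661 nuclei scored G1, 15 CPM (13.7 to 16.4) in S and 15.3 CPM (14.4 to 16.2) in G2/M. It was thus lower in S (0.502 of G1) and in G2/M (0.512), as were 0.605% and 1.21% of all genes at 1.5-fold. Both ratios take in the clusters that make up each phase. Of the 1078 *Syt4* UMIs in G1, 560 came from cluster 2, where *Syt4* was highest. In nuclei with at most 5% mitochondrial UMIs the ratios were 0.631 and 0.700, and the latter no longer passed. No member was higher by that much in S or in G2/M, where 4.43% and 3.59% of all genes were. Within clusters, *Syt4* in G1 exceeded G2/M in cluster 0 (20.9 beside 14.3 CPM), cluster 3 (25.5 beside 11.7), cluster 5 (36.8 beside 20.9) and cluster 6 (29.1 beside 19.4). After thinning, the shares were 9.42% and 3.15% in cluster 3, but nearly the same in cluster 0, at 8.41% (6.16 to 11.2) and 7.81% (5.84 to 10.2). They were 12.4% (8.29 to 17.7) and 8.65% (6.22 to 11.6) in cluster 5. In cluster 6 they were 11.8% (5.79 to 20.6) and 7.08% (4.68 to 10.2). In cluster 4, with 28 UMIs in 62 G1 nuclei, the levels were 37.1 and 21.0 CPM, but after thinning *Syt4* was seen in 5.77% of G1 nuclei (1.21 to 15.9) and 8.03% of G2/M nuclei. In S, *Syt4* had 17.8 CPM (15.1 to 20.8) in cluster 0, whose G1 interval was 17.5 to 24.8 CPM. It had 13.0 CPM in S in cluster 3, 20.5 in cluster 5 and 16.8 in cluster 6. In cluster 2, where most nuclei were in G1, it was 42.6 CPM in G1 and 20.8 CPM in S. In cluster 1 it was 1.43 to 2.21 CPM in every phase.

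*Snap25* was the other member past 1.5-fold, with 9.91 CPM in G1, 10.8 CPM in S and 6.28 CPM in G2/M, a ratio of G2/M to G1 of 0.634 (0.551 to 0.730). Within cluster 0 it was 17.8, 19.0 and 10.6 CPM, and within cluster 3 it was 24.8, 28 and 15.7 CPM in these phases. *Syt1*, *Syt11*, *Snap23*, *Vamp2* and *Vamp3* stayed between 0.817 and 0.984 of their G1 level in both phases. *Stx1a*, under the UMI minimum, was 1.45 times its G1 level in S (1.19 to 1.76).

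**Figure D4:**
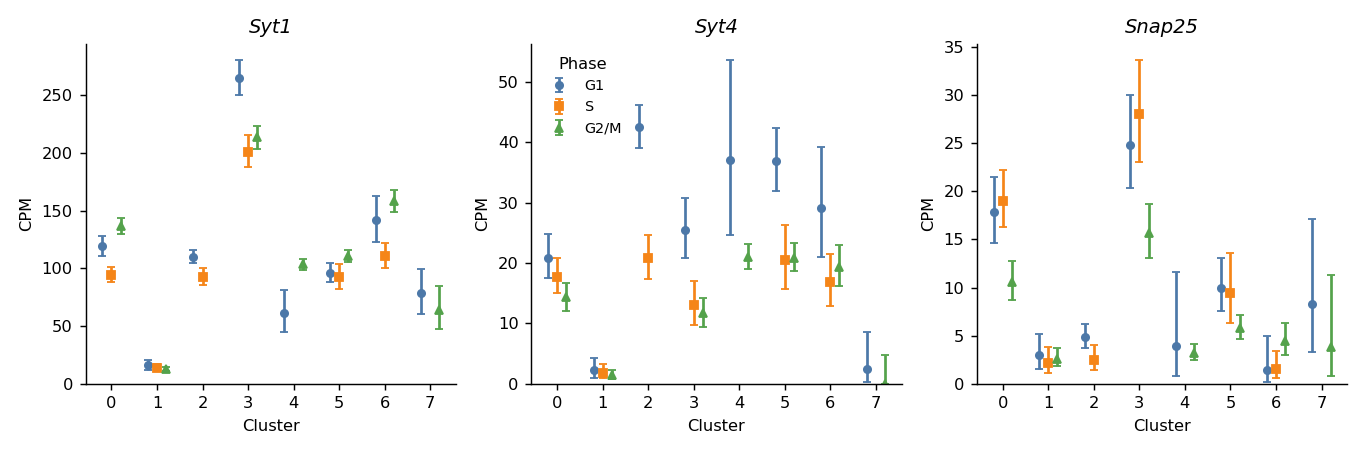
Level of *Syt1*, *Syt4* and *Snap25* in CPM by cluster and scored phase, for groups of at least 50 nuclei, with 95% Poisson intervals. *Syt4* is higher in G1 (blue) than in G2/M (green) in clusters 0, 3, 4, 5 and 6, and *Snap25* is lower in G2/M than in S in clusters 0 and 3. The G1 level of *Syt4* in cluster 4 rests on 28 UMIs in 62 nuclei, and its thinned share there was not higher in G1 (5.77% beside 8.03%). In clusters 0, 5 and 6 the intervals of its thinned shares in G1 and G2/M overlapped.

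Nuclei with *Xist* only and nuclei with Y-linked UMIs only differed in members that also differed in cluster 1. Most of the 1934 nuclei with *Xist* only belonged to cluster 1, where 90.9% of the 1733 nuclei were of this kind. The comparison thus largely repeats that of cluster 1. *Syt1* had 34 CPM in the former and 163 CPM in the latter (ratio 0.209), *Syt4* 6.72 and 19.8 CPM (0.339) and *Snap25* 3.52 and 15.1 CPM (0.234), where 12% of all genes were lower by 1.5-fold. *Snap23* was higher with *Xist* only, at 39.7 beside 22.9 CPM (1.73), where 13.6% of all genes were higher. Within clusters 0 and 5 the *Syt1* values lay closer together. In cluster 0 the 42 nuclei with *Xist* only had 148 CPM of *Syt1* (120 to 182) and the 755 with Y-linked UMIs only had 128 CPM (121 to 135), and *Snap25* was 16.0 CPM and 17.7 CPM. In cluster 5, where 16.6% of nuclei held both marks, *Syt1* was 79.4 and 126 CPM.

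Depth and mitochondrial share moved with *Snap25*. The 1954 nuclei with at most 5% mitochondrial UMIs had 12.7 CPM of *Snap25* against 7.02 CPM in the others, a ratio of 1.81 (1.60 to 2.05), where 1.14% of all genes were higher and 1.27% lower by 1.5-fold, and no other member passed. Within the clusters that held most of it, the levels were 14.7 beside 15.6 CPM in cluster 0 and 20.5 beside 21.5 CPM in cluster 3. *Snap25* was higher with few mitochondrial UMIs in cluster 4, at 6.62 (3.99 to 10.3) beside 2.67 CPM (1.94 to 3.59), and was 5.13 (2.73 to 8.78) beside 2.24 CPM (1.63 to 3.01) in cluster 1. In cluster 0 *Snap25* was 28.7 CPM in nuclei of the lowest quartile of UMI totals and 10.2 to 17.8 CPM in the other 3, and *Syt4* was 36.1 CPM in the lowest and at most 21.0 CPM in the others. *Syt1* in the same nuclei stayed between 107 and 123 CPM. The part of depth in these values was not tested.

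Barcodes outside the cutoffs had the members at similar levels, and none of the 7 passed 1.5-fold against the kept nuclei. In the 918 barcodes under 2000 genes *Syt1* had 149 CPM (131 to 168) and *Vamp3* 60.3 CPM, where 16.9% of all genes were lower and 2.54% higher. In the 212 barcodes over 8000 genes *Syt4* had 26.8 CPM (23.9 to 30.0), 1.42 times its level in kept nuclei (1.25 to 1.59), where 0.00992% of all genes were higher and 0.794% lower.

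Nuclei with the whole neuronal set were rare at this depth. Of 8760 thinned nuclei, 2 held UMIs of *Syt1*, *Snap25*, *Vamp2* and *Stx1a* together (0.0228%, 0.00277 to 0.0824), and 32 of 8917 did without thinning. The 3 neuronal SNARE genes *Snap25*, *Vamp2* and *Stx1a* were found together in 3 thinned nuclei and in 38 without thinning, and the broadly used *Snap23*, *Vamp3* and *Stx4a* in 42 and 759. With *Syt11* added, the latter set was found in 19 and 708 nuclei. At least 1 of the 8 members was seen in 87.7% of thinned nuclei, most often 1 (34.9%) or 2 (33.9%) of them, and none held 7 or 8. The counts of these sets thus followed the number of UMIs read, and they count nuclei with captured UMIs, not nuclei that express the genes.

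Pairs of members were then read in the same nucleus, over all nuclei and within clusters. *Syt1* was seen in 41.9% (36.7 to 47.2) of the 358 nuclei with *Snap25* and in 32.4% (31.4 to 33.4) of those without. Inside cluster 0 these shares were 30.4% (22.2 to 39.7) and 35.7%, and inside cluster 3 they were 58.9% (49.9 to 67.5) and 55.1%. For *Syt11* in nuclei with and without *Syt1* they were 64.9% and 60.6% over all nuclei, and 69.4% and 68.4% in cluster 0. *Vamp3* was seen in 30.7% of nuclei with *Vamp2* and 31.7% of those without. Nuclei with *Snap25* carried the OPC markers, the 8 genes summing to 5899 CPM in them and 5183 CPM in the others, and the 15 neuron markers to 153 CPM (135 to 172) and 118 CPM. Nuclei with *Pdgfra* held *Syt1* in 37.6% and those without in 26.3%, but within cluster 3 the shares were 54.3% and 56.3%.

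The rest of the release machinery was read from 8 lists holding 115 genes, of which 114 were in the table. Of these, 53 stood at 10 CPM or more, 34 between 1 and 10 CPM and 27 under 1 CPM, so 46.5% passed 10 CPM beside 35.8% of the 25898 genes with any UMI. Of the 17 synaptotagmins, 5 passed, namely the 3 members with *Syt14* (29.7 CPM) and *Syt7* (17.5 CPM), the slow calcium sensor. All 8 synaptotagmins with at least 1000 UMIs, the 3 members among them, differed 2-fold or more between clusters, beside 40.9% of all 10079 genes. *Syt14* ranged from 2.26 CPM in cluster 1 to 55.0 in cluster 7. *Snap47* (45.4 CPM) and *Snap29* (10.9 CPM) joined *Snap23* in the SNAP family, and *Vamp4*, a SNARE of the trans-Golgi and endosomes, reached 37.1 CPM. Of the 15 syntaxins 10 passed, among them the endosomal *Stx7* (72.7 CPM) and *Stx8* (69.9 CPM), with *Stx4a* (24.9 CPM) and *Stx2* (10.1 CPM) at the plasma membrane.

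Genes that prepare vesicles for fusion, the largest of the 8 lists, gave the most UMIs, the 34 of them summing to 1156 CPM. Of these, 14 (41.2%) passed 10 CPM. Their median was 6.55 CPM, where the medians of the lists ran from 1.86 CPM for the synaptotagmins to 33.7 CPM for the disassembly genes. *Rims1* had 199.8 CPM, *Rims2* 167, *Erc2* 137, *Erc1* 111 and *Ppfia2* 109, all scaffold genes of the active zone, and *Pclo* had 86.6 CPM. They are long genes, and per kb of span they lay between 0.160 and 0.408 CPM, near *Syt1* and under *Vamp2*. Among the factors that act on the SNARE complex itself, *Nsf*, the ATPase that takes the complex apart, had 102 CPM, and 3 of the 4 disassembly genes passed 10 CPM. The priming genes *Unc13a* and *Unc13b* had 6.83 and 13.0 CPM, and the complexin genes *Cplx2* and *Cplx1* had 8.41 and 1.45 CPM. Of the 20 vesicle membrane genes 7 passed 10 CPM, among them *Syn2* (98.4 CPM), *Syn3* (70.8 CPM) and *Syngr1* (67.8 CPM), whereas *Syp*, which codes for synaptophysin, had 2.81 CPM and *Sv2a* 6.72 CPM. The transporters that load neuronal vesicles were near 0, with *Slc17a7* at 0.0992 CPM and *Slc32a1* at 0.0354 CPM.

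**Figure D5:**
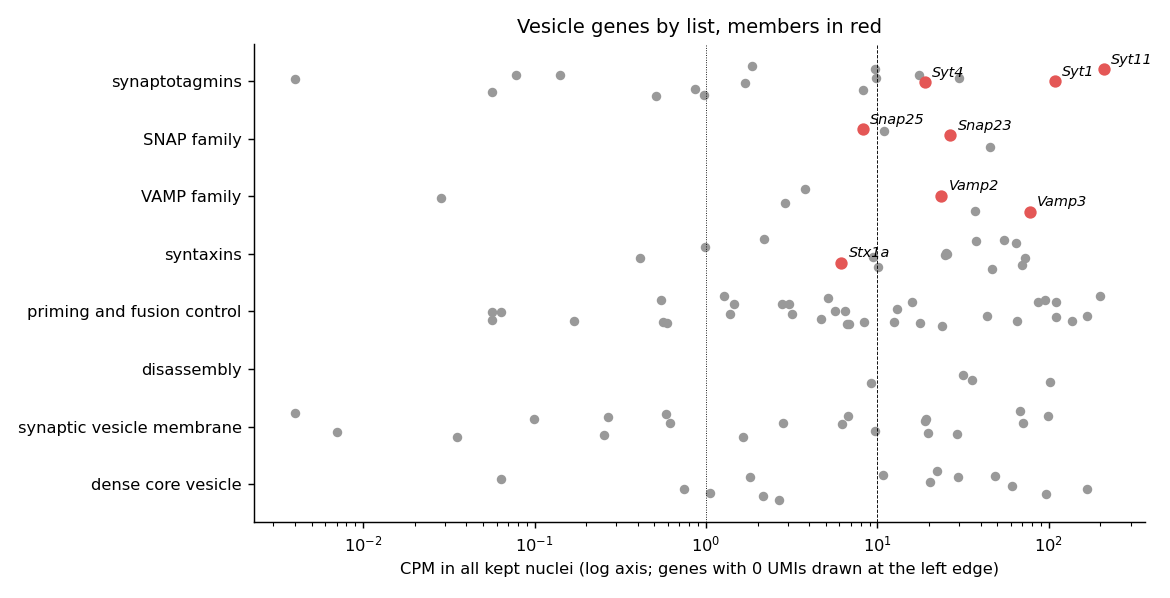
Level of each of the 114 listed vesicle genes in CPM (log axis) by list, with the members in red and lines at 1 and 10 CPM; a gene on 2 lists is drawn once in each. *Syt11*, *Syt1* and *Vamp3* lie at the upper end of their families, while *Snap25* and *Stx1a* lie under 10 CPM.

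For each member with at least 1000 UMIs, the 3 genes with the most similar pattern were named from the Pearson correlation of log2(CPM + 1) over 21 groups of nuclei, formed by cluster and phase. The groups come from 1 library and share its depth and free RNA, so the values describe these nuclei only. *Syt1* was nearest to *Klf8* (0.973), *Alcam* (0.969) and *Insyn2b* (0.959), and *Syt4* to *Creb5* (0.974), *Tbc1d16* (0.962) and *Timp3* (0.953). *Snap25* was nearest to *Gap43* (0.938) and *Dcx* (0.928), both known from growing neurites and young neurons, and to the Y-linked *Kdm5d* (0.922). *Snap23* was nearest to *Marchf7* (0.947), *Dlg1* (0.941) and *Ssr3* (0.940). *Syt11* was nearest to *Fasn* (0.925), *Bex2* (0.917) and *Dusp10* (0.914), *Vamp2* to *Tmcc3* (0.927) and *Gm26760* (0.919), and *Vamp3* to *Ndufb2* (0.896), *Rpp21* (0.887) and *Ttyh1* (0.880). Among the members themselves, *Syt1* and *Vamp2* (0.779) and *Syt4* and *Syt11* (0.757) were most alike, and *Snap23* ran opposite to *Syt4* (-0.801), *Syt1* (-0.743) and *Vamp2* (-0.702).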

How the data were processed

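One snRNA-seq library of cultured BB-p53n OPC nuclei was used. Nuclei were isolated without debris removal or filtering, and the 10x 3' library was aligned by the authors with Cell Ranger (8.0.1) to mm39, with barcodes called by its algorithm. The deposited values are raw UMI counts per gene and barcode. Barcodes with 2000 to 8000 detected genes were kept, the cutoffs in the study's methods, which left 8917 nuclei. The study counts 1954 OPC nuclei after filtering, the number left here when at most 5% mitochondrial UMIs are also required, a filter its methods do not state. That set is given as an alternative. The members and gene lists were chosen with earlier results of these data known. Counts were summed over nuclei and divided by all UMIs (CPM). Clusters were computed in Seurat (5.3.0) with log normalization (scale factor 1000), 3000 variable genes, regression on total counts, 20 PCs, 200 neighbors and resolution 1.0, after 30 listed vesicle genes were removed from the variable genes. Phases were scored with 43 S and 54 G2/M genes. Doublets were not removed. Scrublet in scanpy (1.11.5) marked 1545 nuclei, and its scores served as an alternative. Comparisons between groups of nuclei counted genes with at least 1000 UMIs past 2-fold (clusters) or 1.5-fold (pairs of groups), with counts under 3 set to 3. No test was made, since there is 1 library. Gene spans came from GENCODE vM39 on GRCm39, which matched 33185 of the 33696 genes by identifier. Named were the 8 members, listed genes at 10 CPM or more, up to 5 neuronal genes under 1 CPM, the 3 most similar genes per member and up to 3 leading genes per cluster. Other listed genes between 1 and 10 CPM that are named, the marker genes beside the members, and the member pairs of highest and lowest correlation were chosen after their values were seen. The functions were tested on simulated data. The early and late tumor libraries were not analysed here, and proteins were not compared. The third most similar gene of *Vamp2* is not reported here.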

Additional observations from a re-analysis of the deposited data

How the results depend on the processing

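With 1 library, no test and no replicate could be varied, and a value is said to move where it left its counting interval. No paired analysis was possible because there is 1 library and no second group. Keeping nuclei with at most 5% mitochondrial UMIs gave *Syt1* 133 CPM, *Syt4* 18.1, *Syt11* 219, *Snap25* 12.7, *Snap23* 25.6, *Vamp2* 24.6 and *Stx1a* 4.95 CPM, a *Snap25* share of 33.2% and a *Stx1a* share of 9.90%. Leaving mitochondrial genes out of the total gave *Syt1* 116, *Syt4* 20.2, *Syt11* 224, *Snap25* 8.80, *Snap23* 28.5, *Vamp2* 25.2 and *Vamp3* 83.0 CPM. The mean over nuclei gave *Snap25* 9.70, *Snap23* 27.9 and *Vamp2* 22.7 CPM, and 3000 to 7000 genes gave *Syt4* 17.8 CPM. The ratio of highest to lowest cluster with 20 neighbors was 45.5 for *Syt1*, 37.8 for *Syt4*, 19.4 for *Snap25*, 2.72 for *Snap23*, 2.21 for *Vamp2*, 2.60 for *Vamp3* and 5.04 for *Stx1a*. At resolution 0.4 it was 14.4 for *Syt1* and 1.93 for *Snap23*, and at a scale factor of 10000 it was 30.1 for *Syt1*. Clustering only the nuclei at or under 5% mitochondrial UMIs gave 10.2 for *Syt1*, 9.48 for *Syt4*, 1.52 for *Syt11* and 4.34 for *Snap25*, with 3 members past 2-fold and no share of all genes given beside that count. Leaving out the top 8% of Scrublet scores, an alternative by cluster chosen after seeing the data like that without cluster 5, gave 23.0 for *Syt1*. The 4-gene neuronal set was found in 0 nuclei at 3000 UMIs, and in 0.359% without thinning. Keeping the vesicle genes among the variable genes moved none of the 8 ratios. The cause of these moves was not tested, except that thinning removes UMIs and that 20 neighbors make smaller clusters.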

Other observations

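Dense core vesicles carry peptides. Of the 14 genes on their list, 8 (57.1%) stood at 10 CPM or more, beside 35.8% of all genes with a UMI, with *Cadps* (166 CPM), the priming factor of dense core vesicles, *Cpe* (96.7 CPM), a peptide processing enzyme, *Pcsk1n* (61.3 CPM), *Ptprn2* (48.3 CPM), *Scg5* (29.4 CPM), *Scg3* (22.3 CPM), *Cadps2* (20.4 CPM) and *Pcsk2* (10.9 CPM). Per kb of span *Pcsk1n* had 13.3 CPM, above all 8 synaptotagmin and SNARE members. The granins *Chga* (2.16 CPM), *Chgb* (0.744 CPM), *Scg2* (1.80 CPM) and *Vgf* (1.06 CPM) were low. *Scg5* ran from 3.07 CPM in its lowest cluster to 63.9 in its highest, and *Cpe* from 72.2 to 138.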
